A study of Rattus norvegicus with 12 samples.

Results

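The vacuolar proton pump (V-ATPase) subunits Atp6v0c, Atp6v1a and Atp6v1c1 were described in the lungs of 12 rats. The 3 genes were taken because the study's list of called probes assigns array probes to their symbols. That list gives them 4 probes, 2 for Atp6v0c and 1 each for Atp6v1a and Atp6v1c1, which makes 3 of 1100 genes that the list names and 4 of 51255 probes on the array. The list was made by the study from silica and saline lungs of day 28, so the day 28 difference of these probes is given as a description with no test, and day 14 is the contrast that the choice did not use. Lungs came from male Wistar rats, whose age the labels do not give, in 4 groups of 3 rats with 1 array each. The silica groups had 1.0 mL of silicon dioxide at 50 mg/mL instilled into the trachea, written in the labels also as 50 mg/kg, and the saline groups had 1.0 mL of saline. Lungs were taken on day 28 or day 14. For the arrays of day 14 the titles and time points say 14 days while the shared protocol text says 28 days, and the paper mentions day 28 alone, so these arrays are day 14 as labelled. The 3 lungs of each day 28 group were picked by the study on their histology.

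The V-ATPase is a rotary machine that uses ATP to move protons into lysosomes, endosomes and phagosomes and, in osteoclasts and some other cells, across the plasma membrane. Its V1 sector stands in the cytosol and splits ATP, and its V0 sector sits in the membrane and carries the protons. The low pH made by the pump is needed by lysosomal proteases, and macrophages that take up particles rely on it in their phagosomes and lysosomes.

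Values are log2 signals after quantile normalization over the 12 arrays, and a difference of 1 is a doubling. A call means a limma adjusted p of 0.05 or less, with the adjustment made over all 34097 probes tested. Between 60.5% and 61.1% of probes were well above background on the silica arrays of day 28 and between 63.3% and 69.5% on the other 9 arrays, and no probe was saturated. All 4 member probes were well above background on all 12 arrays. The arrays lay on 2 slides, with slide 1 holding saline replicate 1 and all silica replicates of day 28 and slide 2 holding the other 8, so at day 14 no slide difference lies between the groups. The correlation between arrays of 1 group ran from 0.966 to 0.989. The labels tie no rat to a litter, and the p-values measure the spread between these rats. By the paper's methods, which cover the rats of day 28, cage mates had the same treatment, so there cage and treatment cannot be told apart.

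The pump is read by 60-base probes, each of which has a sequence that occurs once on the array. The probes of Atp6v0c and Atp6v1a that had the largest changes at day 14 are shown because the results below rest on them, 5′ to 3′ as printed on the array.
Atp6v0c, A_44_P1366805: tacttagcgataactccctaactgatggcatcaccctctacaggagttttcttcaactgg
Atp6v1a, A_44_P347007: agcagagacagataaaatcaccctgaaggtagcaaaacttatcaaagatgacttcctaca
They differ in base composition, with a GC content of 45% for Atp6v0c and 38.3% for Atp6v1a. The other Atp6v0c probe, A_44_P440280, has 55% and the Atp6v1c1 probe, A_64_P022263, has 45%. In RefSeq Atp6v0c lies on chromosome 10, Atp6v1a on chromosome 11 and Atp6v1c1 on chromosome 7.

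In silica lungs at day 14, Atp6v0c and Atp6v1a rose, by 2.17-fold and 1.88-fold on the 2 Atp6v0c probes and by 2.39-fold for Atp6v1a. Atp6v1c1 was 1.64-fold higher in silica and did not pass the test. Of the 4 probes 3 were called higher and none lower, where 15.3% of all 34097 probes were called, 7.07% higher and 8.24% lower. The fit on the arrays of day 14 alone called the same 3 probes, where it called 4.59% of its probes higher. With a fold of at least 2 asked for as well, 2 of the 4 were called higher, beside 2.87% of all probes. In a test on the arrays of day 14 alone and without limma's moderation across probes, none of the 4 was called. Its adjusted p ran from 0.0745 to 0.086 for the 3, while all 4 had an unadjusted p under 0.05. The arrays of day 28 thus left the spread in that test as well as the moderation. Every silica array of day 14 lay above every saline array of day 14 for all 4 probes, a pattern that 15.4% of all probes showed. For 1 probe alone, exact permutation of 3 rats against 3 can reach no p below 0.10, so the tests rest on the spread shared across probes and groups.

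Atp6v0c is the proteolipid of the V0 ring, the part that carries protons across the membrane. On probe A_44_P1366805 the saline rats of day 14 had log2 signals of 10.82, 10.52 and 10.72, and the silica rats of day 14 had 12.03, 11.71 and 11.68. The lowest silica rat stood 0.86 above the highest saline rat. The difference was 1.12 ± 0.14 (SE, n = 3 and 3), with an adjusted p of 0.000797 in limma. Probe A_44_P440280 gave 12.01, 11.81 and 11.96 in saline and 12.95, 12.70 and 12.86 in silica. The groups again did not overlap, and the difference was 0.91 ± 0.11 (SE, n = 3 and 3), with an adjusted p of 0.000655 in limma. Both probes placed the same saline rat lowest and the same silica rat highest at day 14. Fitted on the 6 arrays of day 14 alone, so that no array of day 28 entered the spread, the limma adjusted p was 0.013 and 0.0142 for the 2 probes.

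Atp6v1a is the A subunit of the V1 sector and holds the site where ATP is split. The saline rats of day 14 had 8.43, 7.96 and 8.40, and the silica rats had 9.63, 9.39 and 9.54. All silica rats were higher by at least 0.95 than any saline rat. The difference was 1.26 ± 0.14 (SE, n = 3 and 3), with a limma adjusted p of 0.000512, and of 0.0114 from the arrays of day 14 alone.

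Atp6v1c1 is the C1 subunit of V1, which links the V1 stalk to the V0 sector and takes part in the reversible assembly of the pump. The saline rats of day 14 had 6.34, 6.41 and 6.46, and the silica rats had 7.46, 6.93 and 6.95. Silica replicate 1 stood apart from the other two silica rats, and the groups did not overlap. The difference was 0.71 ± 0.26 (SE, n = 3 and 3), with a limma adjusted p of 0.0868, and of 0.0509 on the arrays of day 14 alone. Its spread in the shared fit was set in part by saline replicate 1 of day 28, which read 5.59 where the other two saline rats of day 28 read 6.65 and 6.53. Without that rat the difference was 0.71 with a limma adjusted p of 0.0193. Slide as a block likewise takes that rat out of the spread, as the only saline array on slide 1. The limma adjusted p was then 0.018, and all 4 member probes were called higher. Without silica replicate 1 of day 14 the Atp6v1c1 difference was 0.54, with a limma adjusted p of 0.273.

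**Figure D1:**
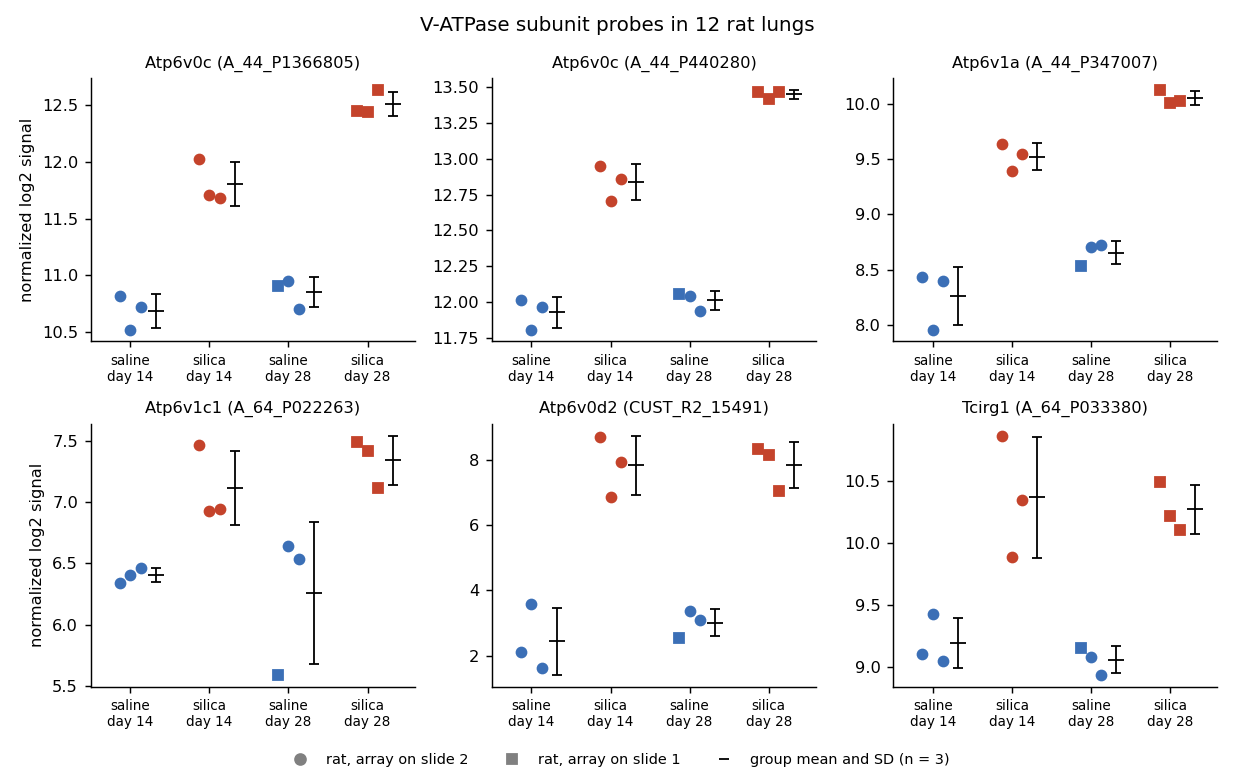
Normalized log2 signal (y axis, scaled for each panel) of 6 V-ATPase subunit probes in the 4 groups (x axis), with 1 point a rat, square points for arrays on slide 1, round points for slide 2, and the group mean with its SD (n = 3) in black. On both days the 3 silica rats lie above the 3 saline rats in every panel, and saline replicate 1 of day 28 lies at 5.59 for Atp6v1c1.

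At day 28, the contrast on which the list was made, silica lungs were 3.16-fold and 2.71-fold higher on the Atp6v0c probes, 2.63-fold higher for Atp6v1a and 2.12-fold higher for Atp6v1c1. The list holds probes with a fold of at least 2, and Atp6v1c1 lies just inside that limit. Over all probes 27.9% were called at day 28, 13.8% higher and 14% lower, and nothing is read from the members' count against it. Probe A_44_P1366805 gave 10.91, 10.95 and 10.70 in saline and 12.45, 12.44 and 12.63 in silica, a difference of 1.66 ± 0.14 (SE). Probe A_44_P440280 gave 12.06, 12.04 and 11.94 in saline and 13.47, 13.42 and 13.46 in silica, a difference of 1.44 ± 0.11 (SE). The 3 silica rats lay within a narrow range on this probe, with an SD of 0.029.

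Atp6v1a had 8.53, 8.71 and 8.72 in saline and 10.12, 10.00 and 10.02 in silica at day 28, a difference of 1.39 ± 0.14 (SE). Atp6v1c1 had 5.59, 6.65 and 6.53 in saline and 7.49, 7.42 and 7.11 in silica, a difference of 1.08 ± 0.26 (SE). The groups did not overlap for any member, which the choice of the list largely fixed, so nothing is read from it beside the 22.6% of all probes that did so at day 28. The day 28 values are the ones touched by slide, since 3 silica arrays and 1 saline array shared slide 1. With slide as a block, every day 28 difference sets the silica rats against saline replicate 1, the single saline array on slide 1. For Atp6v1c1, where this rat read 5.59, the difference was then 1.75.

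For Atp6v0c the silica difference was larger at day 28 than at day 14 by 0.54 ± 0.19 (SE) on A_44_P1366805 and by 0.53 ± 0.15 (SE) on A_44_P440280. For Atp6v1a the 2 days lay 0.14 ± 0.20 (SE) apart, and for Atp6v1c1 0.37 ± 0.36 (SE) apart, in both cases with the larger difference at day 28. Slide as a block sets the silica rats of day 28 against saline replicate 1 alone. The day 28 difference was then 1.60 and 1.39 for the Atp6v0c probes, 1.52 for Atp6v1a and 1.75 for Atp6v1c1. So the order of the members by their gap between days depends on that choice, and under it on 1 saline rat. The day 14 difference was 67.6% and 63.3% of that at day 28 for the Atp6v0c probes, 90.1% for Atp6v1a and 65.5% for Atp6v1c1. These comparisons of days contain the day 28 contrast and carry no test. The silica groups differed between days by 0.70 and 0.61 on the 2 Atp6v0c probes, and the saline groups by 0.17 and 0.08. All silica arrays of day 28 were on slide 1 and all those of day 14 on slide 2, so for silica lungs day and slide cannot be told apart. Atp6v1a was higher at day 28 in both kinds of lung, by 0.39 in saline and 0.53 in silica.

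The members behaved at day 14 much as other probes of the same list did. Their median log2 difference was 1.02 at day 14, and it was 1.42 at day 28. For the other 671 probes of named genes that were higher at day 28, the medians were 1.07 and 1.52. Of these, 479, or 71.4%, were called higher at day 14. The median over all probes tested was -0.01 at day 14. Among all 34097 probes, 2.72% and 4.19% had a day 14 rise at least as large as the Atp6v0c probes, 2.08% as large as Atp6v1a and 6.45% as large as Atp6v1c1.

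**Figure D2:**
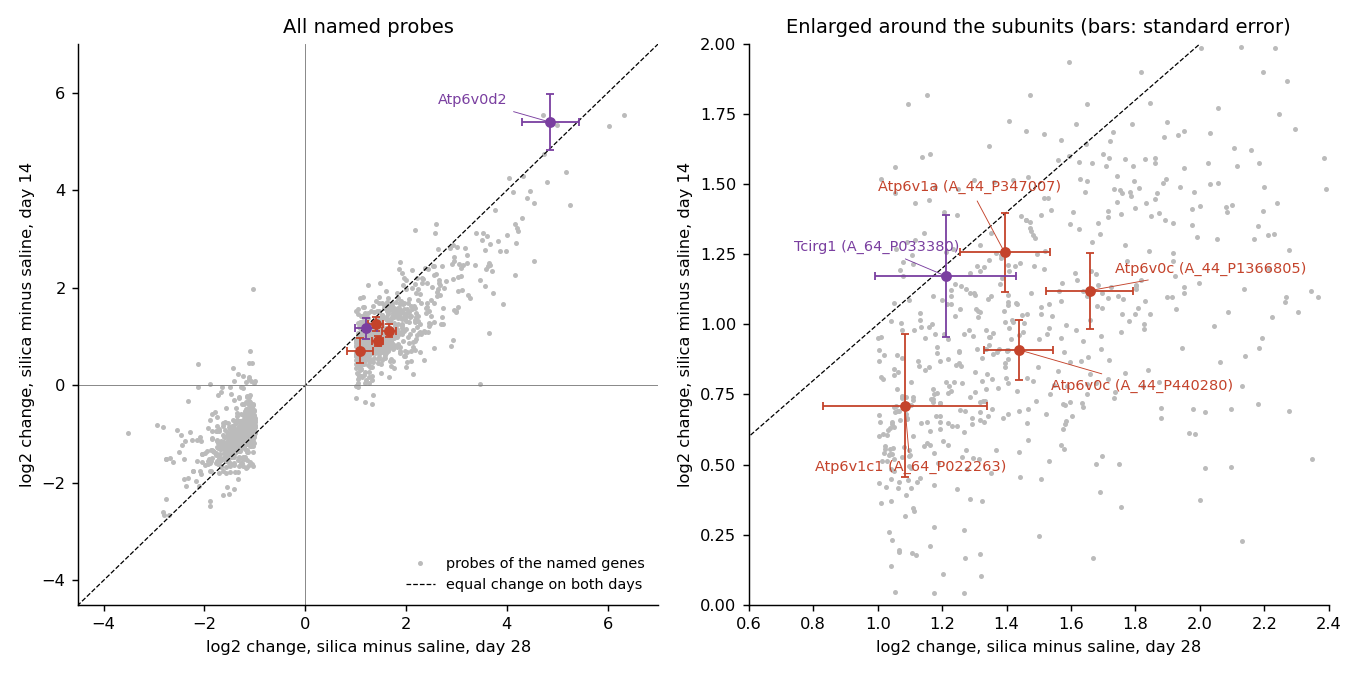
Log2 difference between silica and saline at day 28 (x axis) and day 14 (y axis) for the probes of the named genes (grey), the 4 member probes (red) and the probes of Tcirg1 and Atp6v0d2 (purple), with standard errors for the subunits, and with the region of the members enlarged at right. The empty band around 0 at day 28 comes from the fold limit of the study's list, the members lie inside the grey cloud, below the line of equal change, and the point of Atp6v0d2 rests on saline values that were not well above background.

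**Figure D3:**
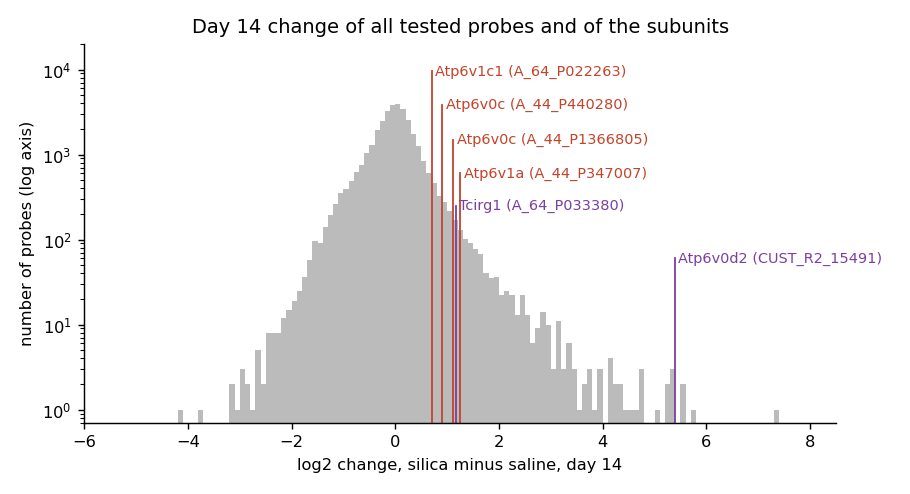
Number of probes (y axis, log scale) at each log2 difference between silica and saline at day 14 (x axis), over all 34097 tested probes, with vertical lines at the subunits. The 4 member probes lie between 0.71 and 1.26, to the right of most probes, and the line of Atp6v0d2 rests on saline values that were not well above background, against which its fold is given only as at least 17.2.

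Of the other subunits of the pump, 2 could be named, both also through the study's list, and both belong to V0. The named genes therefore cover 2 of 13 genes of the V1 list and 3 of 12 genes of the V0 list, and the other subunits were not analysed here. Tcirg1 was called higher at day 14, as were 7.07% of all probes and 71.4% of the other named probes that were higher at day 28. This gene, the a3 subunit found in osteoclasts and in macrophage lysosomes, had 9.11, 9.43 and 9.05 in saline and 10.86, 9.89 and 10.35 in silica at day 14. All silica rats were above all saline rats, and the difference was 1.17 ± 0.22 (SE, n = 3 and 3), with a limma adjusted p of 0.00698, and of 0.0347 on the arrays of day 14 alone. At day 28 Tcirg1 had 9.15, 9.08 and 8.94 in saline and 10.49, 10.21 and 10.11 in silica, a difference of 1.21 ± 0.22 (SE). The differences on the 2 days lay 0.04 ± 0.31 (SE) apart.

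Atp6v0d2, the d2 subunit that osteoclasts and some macrophages use in place of the widespread d1, was dim in saline lungs and bright in silica lungs. It was not well above background on any saline array and was so on all 6 silica arrays, so it entered the test through the silica groups alone and had to differ. At day 14 the saline rats read 2.10, 3.59 and 1.62, and the silica rats read 8.70, 6.87 and 7.93. Taken against the lowest signal that counts as above background on each saline array, or the probe's own where that is higher, silica lungs were at least 17.2-fold higher at day 14. At day 28 the saline rats read 2.55, 3.36 and 3.09, the silica rats read 8.35, 8.17 and 7.06, and the fold was at least 16.8.

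Some pairs of subunits varied together within groups and others did not. Silica replicate 1 of day 14 was the highest of its group on all 6 subunit probes, and silica replicate 1 of day 28 was the highest on 5 of 6. Over the 12 arrays the correlation between subunit probes ran from 0.82 to 0.99, and the difference between silica and saline enters all of these values. After each group's mean was taken off, the 2 Atp6v0c probes still correlated at 0.82, Atp6v0d2 with Tcirg1 at 0.80, and Atp6v1a with Atp6v0c probe A_44_P440280 at 0.71. Atp6v1c1 with the Atp6v0c probes came to 0.07 and 0.05, and Atp6v1a with Tcirg1 to 0.05. Atp6v0d2 came to -0.14 and 0.00 with the Atp6v0c probes and to -0.16 with Atp6v1a. Its saline values were not well above background, so its correlations, the 0.80 with Tcirg1 included, rest partly on dim values. These are descriptions over 12 arrays that share their normalization.

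Macrophage markers moved with the pump. Of 14 macrophage markers looked for, 6 were named on the array (Cd68, Itgam, Msr1, Cd14, Trem2 and Gpnmb). All marker, lysosomal and osteoclast genes given here were named through the study's list, so their direction at day 28 was fixed by its choice, and their day 14 calls stand beside 7.07% of all probes called higher, 8.24% called lower, and 71.4% of the other named probes higher at day 28 that were called higher at day 14. The macrophage markers other than Msr1 were called higher at day 14. The differences of all 6 at day 14, Msr1 included, had a median of 3.25. They ran from 1.86 for Cd14, the lipopolysaccharide co-receptor, to 4.25 for Trem2, a receptor of lipid-handling macrophages. The probe of Msr1, a scavenger receptor, was well above background on 1 saline array of day 14 and on none of day 28. It entered the test through the silica groups alone, so its call is not counted. Per rat, the mean log2 signal of the 6 markers lay between 6.89 and 8.03 in saline and between 10.4 and 10.8 in silica at day 14, and between 7.36 and 7.58 in saline and 10.9 and 11.5 in silica at day 28. Silica replicate 1 was the highest of its group for this mean on both days. In whole lung, more cells of a type and more RNA per cell cannot be told apart, and the part of the macrophage markers in the subunit differences was not tested.

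Markers of other lung cells moved the other way or were not called. Of 6 named endothelial markers, named through the same list, 5 were called lower at day 14, beside 8.24% of all probes, Plvap by the largest amount at -2.06 ± 0.42 (SE). Of 3 named alveolar type 1 markers 2, Cav1 and Rtkn2, were called lower. The 2 named fibroblast and smooth muscle markers, Col1a1 at 0.59 and Tagln at -0.76, and the T cell marker Cd8a at 0.45 were not called. The neutrophil, alveolar type 2, airway, B cell and erythroid lists had no named member. Vwf, an endothelial marker, at -1.07, and Aqp5, of alveolar type 1 cells, at -0.93 were also not called. The part of these markers in the subunit differences was not tested.

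Other lysosomal genes rose as well. Of 31 lysosomal genes looked for, 10 were named, and those other than Ctsk were called higher at day 14, beside the same shares. The probe of Ctsk, the collagen-cutting cathepsin K, was not well above background on any saline array, so it too had to differ, and it was at least 2.32-fold higher. Among the other 9 the largest rises were those of Ctsz, the carboxypeptidase cathepsin Z, at 2.10 ± 0.17 (SE), and of the aspartic protease Ctsd, at 2.06 ± 0.18 (SE), and the smallest was that of Neu1, a sialidase, at 0.75 ± 0.13 (SE). Ctsb, the protease cathepsin B, differed by 1.45, and Psap, the precursor of the saposins, by 0.89, and the subunits of the pump other than Atp6v0d2, between 0.71 and 1.26, lay near the low end of these values.

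Of 9 genes known from osteoclasts, 5 were named, Acp5, Ctsk, Mmp9, Tcirg1 and Atp6v0d2, of which Ctsk and Atp6v0d2 had to differ and the other 3 were called higher at day 14, beside the same shares. Acp5, the tartrate-resistant acid phosphatase, differed by 1.00 ± 0.20 (SE) and Mmp9, a gelatinase, by 1.94 ± 0.56 (SE). Tfec, a relative of the lysosome regulator Tfeb, was the single named gene of 17 regulators, at 1.58 ± 0.43 (SE). It was well above background on 2 of 3 saline arrays on each day and entered the test through the silica groups, so its call is not counted. Oxr1, whose protein family binds the pump, was the single named gene of a list of 13 genes tied to the pump's assembly state. It differed by -0.74 ± 0.23 (SE) and was not called. No lysosomal ion channel of 10 and no mitochondrial ATP synthase gene of 16 was named.

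**Figure D4:**
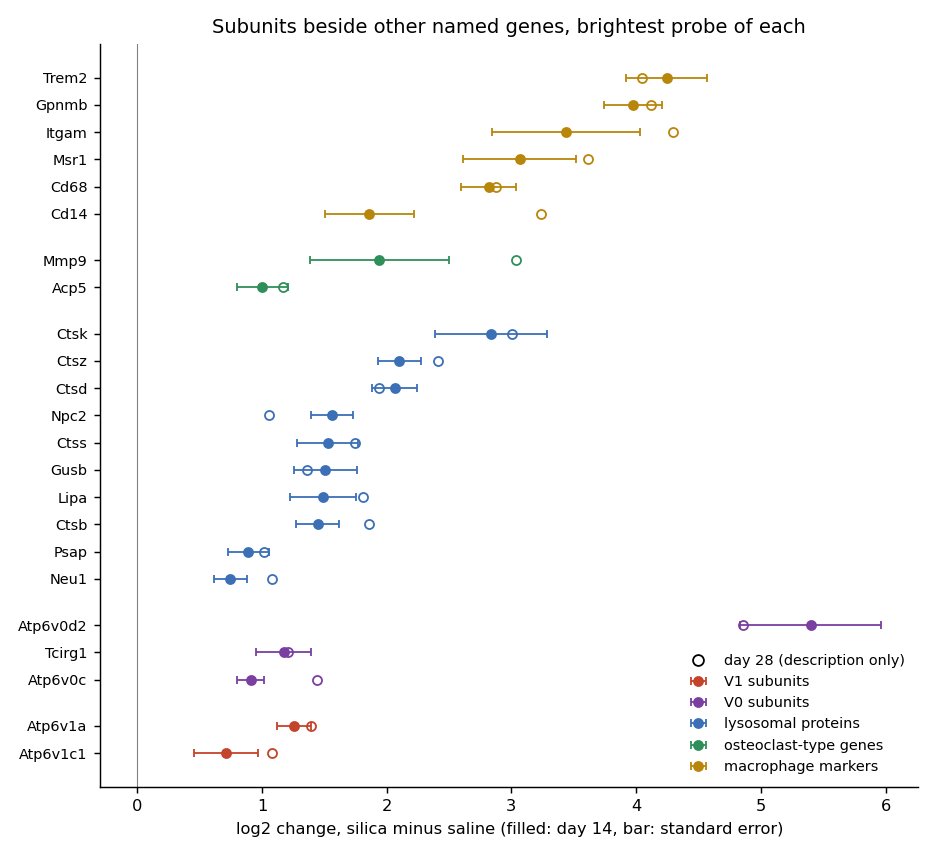
Log2 difference between silica and saline (x axis) for the named pump subunits, lysosomal genes, osteoclast genes and macrophage markers (y axis), with the brightest probe of each gene, filled points with standard errors for day 14 and open points for day 28. The saline arrays of Atp6v0d2 and Ctsk were not well above background, so those points rest on dim saline values. Msr1 was well above background on 1 saline array of day 14 and on none of day 28, so its points also rest on dim saline values. All plotted genes lie to the right of 0, the pump subunits other than Atp6v0d2 between 0.71 and 1.26 at day 14 and the macrophage markers between 1.86 and 4.25.

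The named genes whose pattern over the 12 arrays was most like that of the 4 member probes were led by Slc36a1, a lysosomal symporter of protons and amino acids, with a mean Pearson r of 0.959 among 830 named genes outside the pump. Eno1, the glycolytic enolase 1, had 0.959 and Gnpda1, glucosamine-6-phosphate isomerase, had 0.957. LOC100364062 had 0.956 and Pgd, an enzyme of the pentose phosphate pathway, had 0.955. These genes were all chosen for a difference at day 28 and the arrays hold both treatments, so this likeness is a description with no p. At day 14 these genes differed by 1.05 for Slc36a1, 1.40 for Gnpda1, 0.95 for LOC100364062 and 1.44 for Pgd.

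The promoters of Atp6v0c and Atp6v1a are shown because these members were called at day 14. They come from RefSeq on build GRCr8 and run from 250 bases before the annotated start to 50 bases after it, on the gene's strand, 5′ to 3′. The first lies at chr10:13705793-13706092 on the minus strand and the second at chr11:70067252-70067551 on the plus strand. Capitals mark the 9 bases TCATGTGAC, which read GTCACATGA in Atp6v1a because the match is on the other strand.
Atp6v0c: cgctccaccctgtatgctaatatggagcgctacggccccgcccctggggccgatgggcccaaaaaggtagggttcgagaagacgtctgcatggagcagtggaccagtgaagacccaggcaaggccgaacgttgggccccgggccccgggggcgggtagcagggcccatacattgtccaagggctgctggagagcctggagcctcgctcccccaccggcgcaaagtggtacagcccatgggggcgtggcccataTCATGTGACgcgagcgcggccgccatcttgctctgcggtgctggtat
Atp6v1a: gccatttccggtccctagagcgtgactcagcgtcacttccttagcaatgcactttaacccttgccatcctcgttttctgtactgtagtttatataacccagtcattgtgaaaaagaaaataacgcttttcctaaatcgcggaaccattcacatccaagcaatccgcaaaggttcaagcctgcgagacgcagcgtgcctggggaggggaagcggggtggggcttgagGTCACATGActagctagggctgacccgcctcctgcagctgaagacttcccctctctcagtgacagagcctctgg
The 2 windows differ in base composition, with a GC content of 66% for Atp6v0c and 52.7% for Atp6v1a. Counted from the start, the match covers bases 4 to 12 of the transcribed side in Atp6v0c and -24 to -16 in Atp6v1a.

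Many lysosomal genes carry the CLEAR element bound by Tfeb and its relatives, and 3 motifs of that kind were searched on both strands. The inner 8 bases of the element, TCACGTGA, were in 0.777% of 33469 RefSeq promoters, and the core CACGTG, which they contain, was in 6.42%. The table holds promoters of 20 of the 25 subunit genes, and both motifs were found in 2 of them, Atp6v0d1 and Atp6v0e1, neither of which was analysed here. TCATGTGAC, which differs from the element inside the core and cannot contain the other motifs, was in 0.433% of promoters and in 2 of the 20 subunit promoters, Atp6v0c and Atp6v1a. It was added after these promoters had been read, so its count in them is a description. A match does not make a site.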

How the data were processed

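Lung RNA of 12 rats was hybridized to Agilent single-colour arrays, 1 array a rat. The deposited spot intensities were made by the authors in Agilent Feature Extraction 10.7.1.1, which subtracts background and corrects gradients within an array, with no normalization between arrays. A table of log2 signals that the authors deposited, on which a quantile normalization had been run over the 12 arrays, served as an alternative.

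Control spots and flagged outliers were dropped and the remaining spots of a probe averaged. Quantile normalization over the 12 arrays was applied to the log2 of the processed intensities. Tested were the 34097 of 51255 probes that stood well above background throughout at least 1 group. Groups were fitted with limma 3.58.1 in R 4.3.3, with 4 group means and Benjamini-Hochberg adjustment over all tested probes. The fit was tested on simulated data. The number of arrays limits the precision. Plots were drawn in matplotlib 3.10.9, and tables were handled in pandas 2.3.3 and numpy 2.4.6 under Python 3.11.15.

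Probes were named through the study's list of called probes, matched by probe identifier and sequence, which names 1279 probes of 1100 genes, and the accessions of 1050 of these probes were found in RefSeq. The other 49976 probes have no name here. Naming further subunits by translating the probes was planned and could not be run, as no table of proteins was given. Named in the text were all probes of the members, all other subunits that could be named, from each pathway list its counts and at least its 2 largest rises and falls, and the 5 genes most like the members over the 12 arrays. Where a gene had several probes, the brightest was used for lists. The members and lists were chosen with earlier results of these data known. Protein values of the study were not used here. The list's own fold changes and p-values were not used either. Alternatives were other normalizations and background correction, no filter, the arrays of a day alone, and slide and replicate number as blocks. Further ones were a t-test on each day's arrays without moderation, a fold limit and leaving out each rat.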

Additional observations from a re-analysis of the deposited data

How the results depend on the processing

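The direction of each of the 6 subunit differences at day 14 was the same under the alternatives run. The 3 of 4 member probes and 2 of 2 other subunits called at day 14 lost the call (0 and 0) without limma's moderation. Atp6v0d2, 1 of these 2 subunits, had to differ, so its calls are not read as a result. The alternative without moderation was a t-test on the arrays of each day alone, so the day 28 arrays also left the spread at day 14. Its adjusted p ran from 0.0745 to 0.147 for the 3 member probes and Tcirg1. It called 5 of 34097 probes at day 14 and 6133 at day 28. At an unadjusted p under 0.05 that test passed all 4 member probes, both other subunits and 7937 probes in all. With a fold limit of 2, 1924 probes were called at day 14 and 3322 at day 28, and Atp6v0c probe A_44_P440280 lost its call. On the arrays of day 14 alone 3147 probes were called, against 5218, and with slide as a block 4345 at day 28, against 9508. Leaving out 1 rat gave 3 to 4 member probes, 2 other subunits (2 in every fit), 2507 to 5740 probes at day 14 and 5938 to 10325 at day 28, with 2824, 3200 and 2507 at day 14 without saline replicates 1, 2 and 3 of that day, 2950 without its silica replicate 1, and 6164 and 5938 at day 28 without saline replicate 3 and silica replicate 1 of that day. In the same fits the member median ran from 1.39 to 1.44 at day 28 and the median difference between days from 0.32 to 0.56. Over all alternatives the day 28 median ran from 1.36 with normexp to 1.56 with slide as a block. At day 28 the slide block sets the silica rats against saline replicate 1 alone. The adjusted p at day 14 over all alternatives ran from 0.000129 to 0.083 for Atp6v0c A_44_P1366805 and from 7.66e-05 to 0.0745 for A_44_P440280. It ran from 8e-05 to 0.086 for Atp6v1a, from 0.018 to 0.273 for Atp6v1c1 and from 0.00251 to 0.147 for Tcirg1. The cause of these changes was not tested. No pairing by replicate number was seen. Same-numbered silica and saline rats of a day correlated at -0.167 to 0.0729 in their deviations, and other pairs at -0.209 to 0.19. With the replicate block 3 member probes and 2 other subunits were called at day 14, with 4695 probes in all, 8643 at day 28, and a median difference between days of 0.45. The median change of all probes lay within 0.1 of 0 with each of the 3 other scalings tried (75th percentile, normexp and the authors' table).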
